A study of Mus musculus with 5 samples.

Results

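The genes described here are receptors for the hormones that drive the mammary gland and genes that act in their response. They were measured at the onset of puberty, in epithelium with and without a targeted Mmp14 gene. The list names 9 genes: Esr1, Pgr, Prlr, Ghr, Greb1, Nr3c1, Tnfsf11, Calca and Ly6a. A gene was measured where a probe set of the array table is annotated to it alone, taking the brightest where there were several. This gave 6 measured genes among the 22180 genes of the table, and each of the 6 has 1 such probe set. The annotation used here pairs no probe set with Prlr, the prolactin receptor, with Calca, the calcitonin and CGRP gene, or with Ly6a, which encodes the surface protein Sca-1, so these 3 are not analysed here.

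Mammary epithelial cells came from 4-week-old mice of a congenic FVB/NJ background. The conditional knockout group (2 arrays) carried MMTV-Cre and floxed Mmp14 alleles, and the wild-type group (3 arrays) consisted of littermates with the same floxed alleles and no Cre transgene. MMTV-Cre places the recombinase under a mouse mammary tumour virus promoter, which is active in mammary epithelium and also in some other tissues. The labels number biological replicates within each group and do not say whether an array holds 1 mouse or several, and p-values measure the spread between these 5 arrays. Mmp14 codes for a collagen-degrading protease held in the plasma membrane.

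During puberty, oestrogen acts through the receptor encoded by Esr1 in a subset of luminal cells, the hormone-sensing cells, which pass paracrine signals to their neighbours. Oestrogen induces Pgr, the progesterone receptor gene, and progesterone in turn induces RANK ligand, the product of Tnfsf11, and Wnt4. Growth hormone acts on the gland largely through stromal cells and local IGF1, and glucocorticoids act through the receptor encoded by Nr3c1.

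All values are log2 signals, and SDs are over n = 3 wild-type or n = 2 knockout arrays. Differences are knockout minus wild type, fitted with limma over all 22180 genes with Benjamini-Hochberg adjustment and a threshold of 0.05. The targeted gene was not separated between the genotypes: Mmp14 read 7.98 and 7.28 in the knockout against 8.15, 8.67 and 7.75 in the wild type, and knockout 1 lay above wild type 3. Signals of Epcam (9.98 to 10.10), Krt8 (11.34 to 11.48) and Krt14 (8.96 to 9.29), markers of luminal and basal epithelium, were far above the array medians of 4.24 to 4.29. The fibroblast collagen gene Col1a2 was also bright (10.51 to 10.87). The labels carry array numbers that form 2 consecutive series: knockout 1 shares run 1 with the first 2 wild-type arrays, and knockout 2 shares run 2 with wild type 3. What a run means is not stated. Exact ties are common in the table: 68.8% of genes, and all 6 genes described here, had the same value on at least 2 arrays. Ties within a genotype shrink the estimated spread of a gene. For Pgr and Greb1 the only tie was between a knockout and a wild-type array.

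None of the 6 genes passed the test between the genotypes. The count at limma's adjusted p was 0 of 6, as over all genes (0 of 22180, 0%), and 0 of 6 had an unadjusted p under 0.05, where 0.703% of all genes did with a higher and 0.595% with a lower knockout mean. The knockout mean was higher for 4 genes and lower for 2, with a median difference of 0.01 against 0.00 over all genes. The groups did not overlap for 1 gene, Esr1, which was higher in the knockout. Over all genes that held for 2.63% higher and 2.80% lower in the knockout, and a single gene of 6 is too few to set against these shares. The widest range over the 5 arrays was that of Pgr, 0.55, and the next were Esr1 at 0.26 and Tnfsf11 at 0.20.

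**Figure D1:**
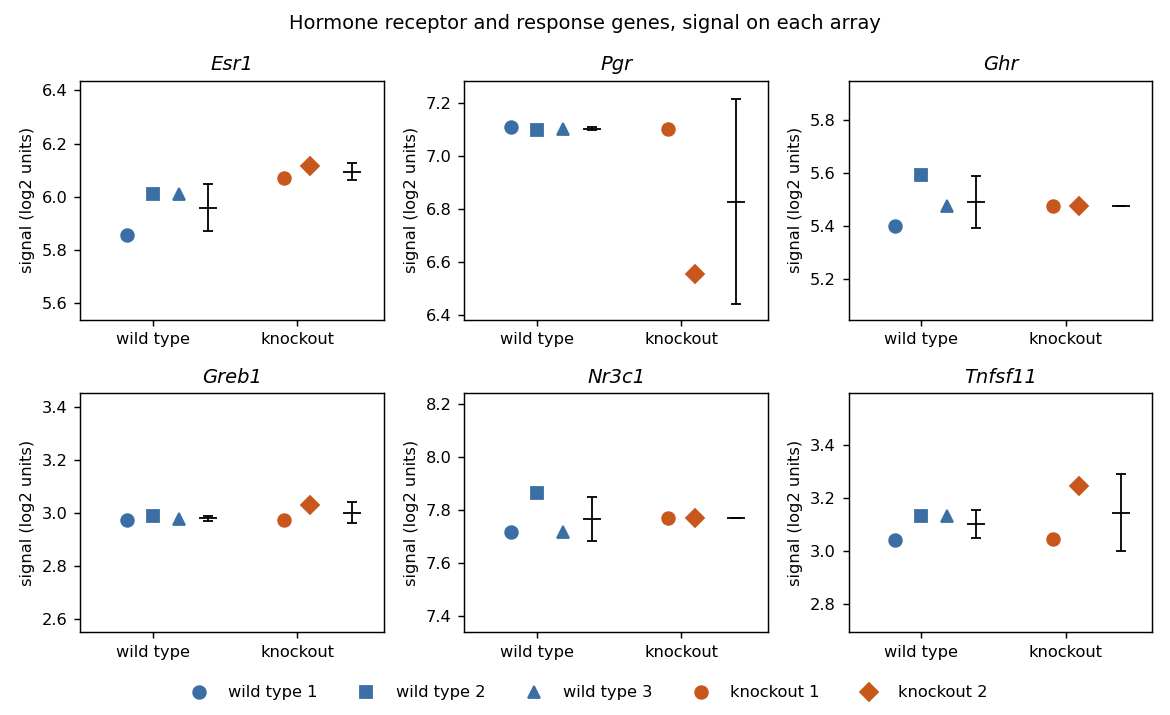
Signal (log2 units) of the 6 measured genes on each of the 5 arrays, with blue symbols for control and orange for knockout arrays; the bar beside each group is its mean ± SD (n = 3 and n = 2), and every panel spans the same 0.9 log2 units. Knockout 2 stands apart for Pgr at 6.55, and for Esr1 the knockout arrays are the highest.

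Esr1, which encodes oestrogen receptor alpha, read 6.07 in knockout 1 and 6.12 in knockout 2 against 5.86, 6.01 and 6.01 in wild type 1, 2 and 3. The knockout arrays were the highest of the 5, separated from the nearest wild-type array by 0.06, and wild type 2 and wild type 3 had the same value. The difference was 0.14 ± 0.06 (SE; limma adjusted p = 0.919), a factor of 1.10 with a 95% interval of 0.970 to 1.24. It was 0.14 within run 1 and 0.11 within run 2, where each genotype has 1 array. Without wild type 1, the lowest array, it was 0.08. That array also had the highest mean of keratinocyte and hair markers (5.27, against 4.25 to 4.32 elsewhere) and of T and NK cell markers (5.37, against 4.58 to 4.72), and the part of these in its low Esr1 signal was not tested. Esr1 varied by at most 0.26 over the 5 arrays, and its wild-type spread (SD 0.09) was of the same order as the difference.

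Pgr read 7.10 in knockout 1 and 6.55 in knockout 2 against 7.11, 7.10 and 7.10 in the wild type. A single array, that of knockout 2, was low, and knockout 1 had the same value as wild type 3. Knockout arrays averaged 6.83 ± 0.39 and wild-type arrays 7.10 ± 0.0056, which is a difference of -0.28 ± 0.18 (SE; limma adjusted p = 0.919) with a 95% interval of -0.80 to 0.24. The difference was 0.00 within run 1 and -0.55 within run 2. Without knockout 1, Pgr passed limma's test at -0.55 ± 0.0076 (SE; adjusted p = 0.00703), and without knockout 2 the difference was 0.00. Those fits called 7.92% and 3.76% of all genes. In the first of them the lone knockout array is taken to vary like the wild type, whose 3 values have an SD of 0.0056. Fewer cells of a type and less RNA per cell cannot be told apart in these bulk samples.

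Markers of hormone-sensing luminal cells were low on the same array. Of 9 measured markers, 7 read lower in knockout 2 than on any wild-type array, against 23.7% of all genes. In knockout 1 the count was 2 of 9, against 19.2% of all genes, and 4 of 9 read higher than on any wild-type array, against 18.4%. Their mean signal was 6.75 in knockout 1 and 6.02 in knockout 2, and 6.69 to 6.86 in the wild type. Gpx3, a secreted peroxidase, was low on both knockout arrays, at 7.19 and 6.37 against 7.47 to 8.10, and was the 1 marker of the 9 whose groups did not overlap (difference -0.96 ± 0.35, SE). Cxcl15, a chemokine, read 5.19 in knockout 2 against 7.50 to 8.72 in the wild type and 7.54 in knockout 1. Prom1, a membrane glycoprotein that marks these cells, read 6.10 against 7.08 to 7.26, with 7.33 in knockout 1. Foxa1, a pioneer factor for the oestrogen receptor, read 6.98 against 7.08 to 7.43, and Cited1, a coactivator, 7.56 against 7.86 to 7.95. Tbx3 and Sostdc1 were the exceptions in knockout 2, at 7.02 against 6.97 to 7.15 and at 5.54 against 5.12 to 5.45. None of the 9 passed limma's test between the genotypes, and their median difference was -0.09.

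Markers of other cell types also stood apart on the knockout arrays. Of the luminal progenitor and alveolar markers, 8 of 10 lay below all wild-type arrays in knockout 2, with a list mean of 6.80 against 7.33 to 7.88. Of the pan-luminal and epithelial markers, 6 of 10 did, with a mean of 9.13 against 9.26 to 9.30. Of the fibroblast markers, 6 of 10 lay above all wild-type arrays in knockout 2, against 22.6% of all genes, although their mean of 8.24 was within the wild-type range of 7.76 to 8.40. The basal myoepithelial mean (7.66 against 7.34 to 7.71) was also within range. In knockout 1, 9 of 10 endothelial markers lay below all wild-type arrays, and 8 of 10 pan-luminal and epithelial markers lay above them. In knockout 2, 5 of 10 endothelial markers lay above all wild-type arrays. On knockout 2, Esr1 (6.12) was above the wild-type range, and the markers Tbx3 and Sostdc1 were not below theirs. The part of the cell type shifts in the Pgr and Esr1 signals was not tested.

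**Figure D2:**
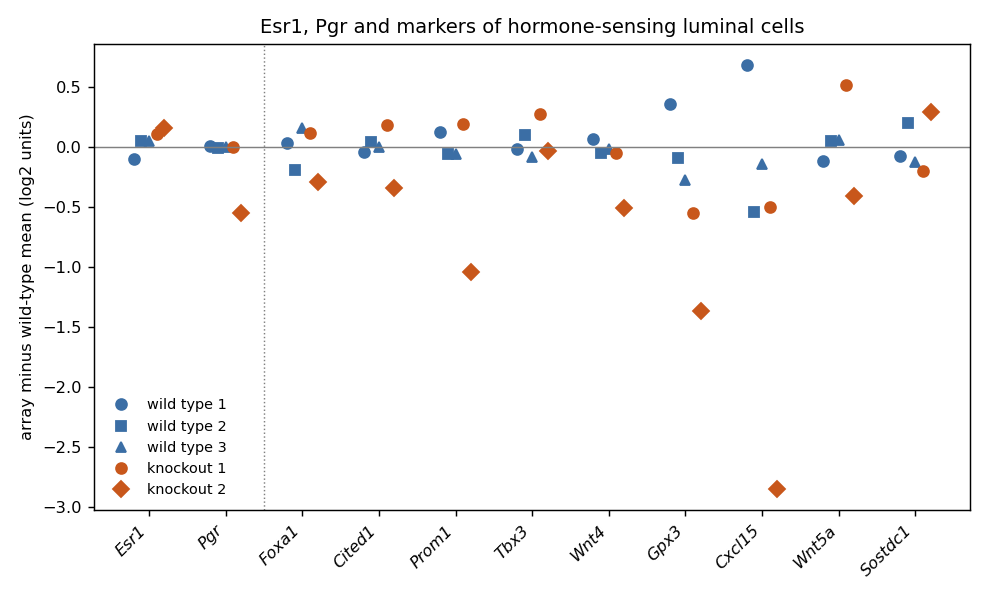
Signal of each array minus the wild-type mean of the gene (log2 units) for Esr1, Pgr and the 9 measured markers of hormone-sensing luminal cells, with blue symbols for wild type and orange for knockout. Knockout 2 (diamonds) lies below every wild-type array for Pgr and 7 of the 9 markers, and above every wild-type array for Esr1.

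Greb1, a cofactor of the oestrogen receptor and one of its most strongly induced targets in breast cells, had a weak signal. It read 2.97 and 3.03 in the knockout against 2.97, 2.99 and 2.98 in the wild type. These values lie below the array medians, and without detection calls they cannot be told from background. The difference was 0.02 ± 0.02 (SE; limma adjusted p = 0.919; 95% interval -0.05 to 0.09), and it was -0.01 within run 1 and 0.05 within run 2.

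Tnfsf11, which encodes RANK ligand, was similarly dim, at 3.04 in knockout 1 and 3.25 in knockout 2 against 3.04, 3.13 and 3.13 in the wild type. Knockout 2 read highest of the 5 and knockout 1 lay beside wild type 1, so the groups overlapped. The difference was 0.04 ± 0.08 (SE; limma adjusted p = 0.943; 95% interval -0.18 to 0.26), with -0.04 within run 1 and 0.11 within run 2. Its receptor gene Tnfrsf11a, which encodes RANK, read 4.50 and 4.42 against 4.48 to 4.59. The decoy receptor gene Tnfrsf11b, for osteoprotegerin, read 4.04 and 4.08 against 4.00 to 4.05, all below the array medians. Neither passed the test.

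Ghr, the growth hormone receptor gene, read 5.47 in both knockout arrays and in wild type 3, with wild type 1 at 5.40 and wild type 2 at 5.59. The knockout values fell inside the wild-type range, and the difference was -0.01 ± 0.07 (SE; limma adjusted p = 1.00; 95% interval -0.20 to 0.17).

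Nr3c1, the glucocorticoid receptor gene, read 7.77 in both knockout arrays, between wild type 1 (7.72), wild type 3 (7.72) and wild type 2 (7.86). The difference was 0.0036 ± 0.06 (SE; limma adjusted p = 1.00), and its 95% interval of -0.16 to 0.17 corresponds to factors of 0.895 to 1.12. The knockout SD of 0.00 for Ghr and Nr3c1 is a tie of 2 arrays, so the intervals rest on the wild-type spread and on the variance shared over all genes. Both genes were highest in wild type 2. That array had the highest means of fibroblast (8.40), basal myoepithelial (7.71) and macrophage (5.34) markers, among others. The fibroblast mean was next highest in knockout 2 (8.24) and lowest in wild type 3 (7.76). Ghr was exactly tied on both, as on knockout 1, and such a tie cannot show whether Ghr follows the fibroblast mean. A part of stromal cells in these signals was not tested.

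**Figure D3:**
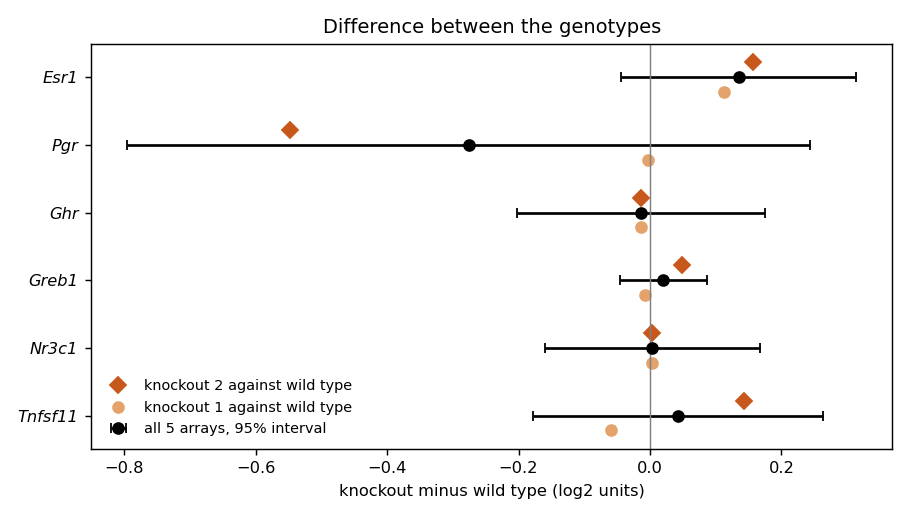
Knockout minus wild type (log2 units) for each gene, with black points and bars for the fit of all 5 arrays and its 95% interval, and orange symbols for each knockout array alone against the 3 wild-type arrays. All 6 intervals include 0, and the single-array values part most for Pgr, at 0.00 and -0.55.

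The patterns most like those of the 3 genes with the largest SD over the 5 arrays were found by the root mean square difference of the arrays' deviations from each gene's mean. Closest to Pgr (SD 0.24) were Tram1 (0.0067 log2 units), Mblac1 (0.0096) and Stk39 (0.01). Tram1, a translocation factor of the endoplasmic reticulum, read 8.49 in knockout 2 and 9.02 to 9.05 elsewhere. Closest to Esr1 (SD 0.10) were Snx21, Unc93a2 and Foxr2 (0.01 to 0.02), and closest to Tnfsf11 (SD 0.08) were Egr4, Ppm1j and Arnt2 (0.02 each). With 5 arrays and 22180 genes, close matches arise in any such search.

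The wider pathways were described with 9 lists that hold 118 measured genes besides the 6. None of the 118 passed limma's test, and 1 had an unadjusted p under 0.05. The mean was higher in the knockout for 59 and lower for 52, the median difference was 0.00, and list medians ran from -0.02 to 0.07. The groups did not overlap for 2 higher genes (1.70%) and 2 lower genes (1.70%), against 2.63% and 2.80% of all genes. Such small counts are too few to set apart from these shares.

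Among the other nuclear and membrane hormone receptors, 0 of 17 passed the test (median 0.00, 8 higher and 5 lower). Esr2, the oestrogen receptor beta gene, read 3.40 and 3.75 against 3.48 to 3.49, and Nr3c2, the mineralocorticoid receptor gene, 4.94 and 4.93 against 4.93 to 5.01. All Esr2 values were below the array medians. Gper1, a membrane oestrogen receptor, had the largest difference of the list, 0.25 ± 0.15 (SE). It read 4.16 in knockout 1, the same as wild type 1 and 3, and 4.50 in knockout 2. Only its knockout 2 value was above the array medians. For 4 of the 17, Esrrb, Thra, Rxrb and Rxrg, the table gives 1 value for all 5 arrays. Of the 14 receptor chaperones and coregulators, 0 passed (median -0.01), among them Fkbp4, a cochaperone of steroid receptors, at 0.03 ± 0.02 (SE) and Ncoa3, a coactivator, at -0.07 ± 0.04.

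In the oestrogen response list, 0 of 16 passed (median -0.01, 8 higher and 8 lower). Stc2, stanniocalcin 2, read 6.95 and 6.67 in the knockout against 6.97 to 7.22 in the wild type, so its groups did not overlap. Myb, a transcription factor, read 6.39 in knockout 1 and 4.86 in knockout 2 against 6.27 to 6.75. Xbp1, a regulator of secretory cells, read 7.01 and 6.64 against 6.95 to 7.13. For Myb and Xbp1 the low array was again knockout 2 alone. Myc, a growth regulator, was higher in the mean by 0.15 ± 0.09 (SE), at 9.97 and 10.05 against 9.78 to 10.01. Cxcl12, a chemokine named after its values were seen, went the other way on that array, at 7.30 against 6.33 to 6.95 in the wild type.

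Of the 15 genes of the progesterone response and the RANK pathway, 0 passed (median 0.00). Wnt4, a paracrine signal induced by progesterone, read 5.33 in knockout 1 and 4.87 in knockout 2 against 5.33 to 5.45. Elf5, a factor of the alveolar lineage, read 5.20 and 5.03 against 5.20 to 5.42. Wnt4 is also counted above among the hormone-sensing markers, and Elf5 among the luminal progenitor and alveolar markers. Both were lowest on the array of knockout 2. Rspo1, a secreted Wnt enhancer, was highest on it, at 4.56 against 4.49 to 4.50 elsewhere.

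In the prolactin, growth hormone and STAT5 list, 0 of 16 passed (median -0.02, 7 higher and 9 lower). Socs1 and Socs3 encode feedback inhibitors of cytokine receptors. Socs1 read 4.70 and 4.49 in the knockout against 4.70 to 4.79 in the wild type (-0.16 ± 0.08, SE). Socs3 read 7.68 and 8.06 against 7.41 to 7.65, and its groups did not overlap. Run 1 gave it a difference of 0.03 and run 2 one of 0.66. Stat5a and Stat5b, the transducers of both hormones, differed by -0.09 ± 0.09 and 0.12 ± 0.08 (SE), and Jak2, their kinase, by -0.03 ± 0.10. Igf1, which carries much of the growth hormone signal, stood at -0.16 in knockout 1 and 0.28 in knockout 2 relative to its wild-type mean, so the knockout arrays lay on either side of the wild type.

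The glucocorticoid response list had the highest median of the 9 lists, 0.07, and 0 genes called. The knockout mean was higher for 12 of its 17 genes, against 48.4% of all genes. Errfi1, a feedback inhibitor of the EGF receptor, was at 0.17 ± 0.11 (SE), Sgk1, a kinase, at 0.11 ± 0.09 and Ddit4, an inhibitor of mTORC1, at 0.07 ± 0.07. Averaged over the list, knockout 1 stood at 0.04 and knockout 2 at 0.10 relative to wild type, against -0.07 to 0.06 on the wild-type arrays.

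For the systems of the genes without a probe set, 0 of 9 calcitonin and CGRP genes passed (median -0.01). Calcr, the calcitonin receptor gene, was dim at 3.17 to 3.20. Ramp1, a subunit of the CGRP receptor, read 3.97 and 3.88 against 4.06 to 4.57 without overlap. Its signal was also dim, below the array medians on every array but wild type 2. Of the 12 measured Ly6 family genes, 0 passed (median 0.05). The 1 gene with an unadjusted p under 0.05 was Gpihbp1, which anchors lipoprotein lipase on capillary endothelium, at 6.58 and 6.76 against 6.09 to 6.46 (difference 0.40 ± 0.14, SE; limma adjusted p = 0.919). The endothelial marker list had a mean of 6.04 in knockout 1, below the wild-type range of 6.34 to 6.63. In knockout 2, where Gpihbp1 was highest, the list mean of 6.69 was above that range. The part of endothelial cells in the Gpihbp1 signal was not tested. Of the 8 genes of hormone synthesis and inactivation, 0 passed (median 0.00).

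**Figure D4:**
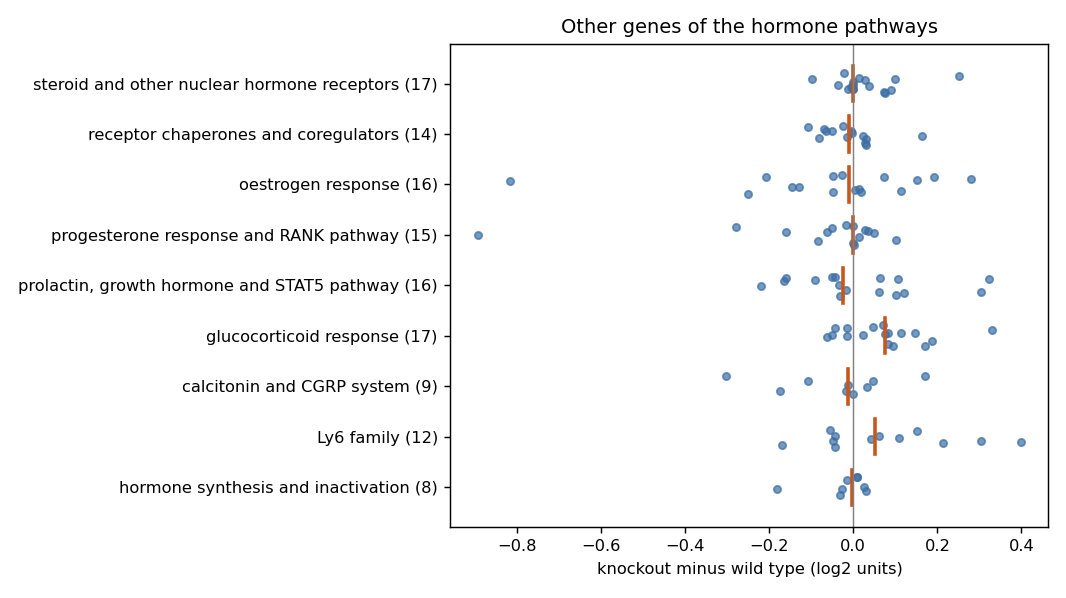
Knockout minus wild type (log2 units) for every measured gene of the 9 pathway lists, 1 blue point per gene, with the list median as an orange line and the number of measured genes in brackets; points are spread vertically for visibility only. Medians lie between -0.02 and 0.07 and no gene passes limma's test.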

How the data were processed

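The authors deposited 1 log2 signal for each probe set and array; the submitters' processing notes list RMA and limma and give no version. Library files and build: not given in the sources used here. Coordinates are therefore left out. Per the labels' protocols, cells were freed with collagenase, separated from stroma by centrifugation, and labelled from 10 ng of RNA. Of 41345 probe sets, 23521 have 1 gene symbol, 1814 several and 16010 are not listed. Those with 1 symbol were used, 1 per gene by highest mean, giving 22180 genes.

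Knockout and wild type were compared with limma 3.58.1 in R 4.3.3 (lmFit, eBayes, two-sided, no covariate), and the procedure was tested on simulated data. Intervals are at 95%. The number of arrays limits the precision.

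The genes described and the lists were chosen with earlier results of these data known. All members are named, and of each pathway list up to 4 genes with the largest moderated t (fewer for some lists), plus direct partners of the members. Alternatives were other normalisations, filters, priors, array weights, blocks, single runs and leaving out each array. Wisp2 was found under its current symbol Ccn5. Prlr, Calca and Ly6a were not analysed here.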

Additional observations from a re-analysis of the deposited data

How the results depend on the processing

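Esr1 stayed higher in the knockout in all 17 alternatives and uncalled in the 16 with a test (run 2 alone has none), between 0.08 and 0.16 when 1 array was left out. Pgr stayed lower, between -0.55 and -0.0028 with 1 array left out, and was called only without knockout 1; within run 2 it was -0.55. The other genes, all near 0, turned in sign. Ghr was 0.0008 with array weights and ran from -0.059 to 0.038 with 1 array left out. Greb1 was -0.0086 in run 1, 0.051 in run 2 and -0.0071 to 0.048 with 1 array left out. Tnfsf11 was -0.04 in run 1, 0.11 in run 2 and -0.059 to 0.14 with 1 array left out. Nr3c1 was -0.0019 with arrays centred on their medians, -0.020 in run 1 and -0.021 to 0.052 with 1 array left out.

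Leaving out 1 array gave 0 to 1 called members, 0 to 1757 called genes overall (1757 without knockout 1 and 835 without knockout 2) and 0 to 9 called pathway genes; every other alternative gave 0. With the replicate number as a block, 0 genes were called and Nr3c1 was -0.020. Over 22180 genes the deviations of same-numbered arrays correlated at 0.245 for number 1, whose arrays also share run 1, and at -0.044 for number 2. The labels tie the numbers to no shared animal, litter or batch, and the arrays were not taken as pairs. The restriction to genes with 5 different values, chosen after seeing the data, held no member, since all 6 have ties, and called 0 genes. Greb1 and Tnfsf11 were left out by the filter on dim genes.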

Other observations

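A few hormone pathway genes, picked for this pattern, read on opposite sides of the wild type on the 2 knockout arrays, which leaves a difference of means near 0. Rarg, a retinoic acid receptor, read 5.72 on all 3 wild-type arrays, 5.86 in knockout 1 and 5.497 in knockout 2. Set against the wild type alone, knockout 1 was called at 0.15 (limma adjusted p = 0.0218) and knockout 2 at -0.22 (adjusted p = 0.00775), where the tied wild-type values lower the estimated spread. Slc9a3r1, a scaffold protein induced by oestrogen, did the same at 0.21 (adjusted p = 0.0446) and -0.18 (adjusted p = 0.0334), with 7.72 to 7.74 in the wild type. These fits called 3 and 9 of the 118 pathway genes, against 3.76% and 7.92% of all genes.

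Large departures of knockout 2 were about as frequent among the pathway genes as among all genes on the lower side. At least 0.5 log2 units below the wild-type mean lay 3 of 118 pathway genes (2.54%) against 2.03% of all genes. On the upper side the share was larger among the pathway genes. At least 0.5 above lay 5 of 118 (4.24%) against 332 of 22180 (1.5%). The members had 1 of 6 below, Pgr, and 0 above. The pathway genes were brighter: 102 of 118 passed the filter on dim genes, against 13308 of all 22180. They also had fewer ties: 54 of 118 had 5 different values, against 31.2% of all genes. The part of signal and ties in the shares was not tested. The following genes were picked for their values in knockout 2. Cyp24a1, which inactivates vitamin D, read 4.05 in knockout 2 and 6.25 in knockout 1, but the wild-type arrays themselves ran from 4.87 to 7.13. Zbtb16, a glucocorticoid-induced transcription factor, read 4.93 in knockout 2 against 3.87 to 4.03 in the wild type and 3.59 in knockout 1. Only its knockout 2 value was above the array medians. Cish, a STAT5 target, read 8.15 against 7.38 to 7.54, with 7.39 in knockout 1.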
